A study of Mus musculus with 64 samples.

Results

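The antiviral type I interferon-stimulated genes described here are 37 genes, of 25239 in the count table, that were chosen by name as members of this response. All 37 were found in the table under these names. They comprise 7 groups by role: the IFIT family, the ISG15 system, the OAS family, sensors of viral nucleic acid, genes of ADP-ribosylation, restriction factors, and a set of other interferon-stimulated genes. Each gene was followed as counts scaled to a common library size of 1e6 reads (CPM), and the whole set as a score, the mean of log2 CPM over the 37 members in a library.

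The study asked how age and sex bear on inflammation in the eye after an adeno-associated virus (AAV) vector is given. Retinal microglia, the resident macrophages of the retina, were sorted by FACS from single retinas as cells with high tdTomato fluorescence, 600 cells to a library, and their polyadenylated RNA was sequenced. All mice, controls included, were Cx3cr1CreER:R26-tdTomato +/- on a C57BL/6J background, were heterozygous for a tamoxifen-inducible Cre driven from the Cx3cr1 locus, a gene that monocytes also express, and had received tamoxifen eye drops and a washout before use. Injected mice had received 1e10 genome copies per eye of an AAV2 vector without a transgene into the vitreous and were killed at day 12 or at day 28, while naive mice had no injection. The vector carried an oligonucleotide sequence that inhibits TLR9, a sensor of viral DNA. Females and males of 3, 9 and 18 months were used, which gave 18 groups of 2 to 4 libraries, the group of 2 being naive 9-month-old males. In all, 62 libraries entered the comparisons, 19 naive, 22 at day 12 and 21 at day 28, with totals of 1468478 to 9836173 counts (median 4188992). Each library came from the retina of a single eye, so that the tests below measure the spread between such libraries.

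Type I interferons signal through the receptor chains IFNAR1 and IFNAR2 and the kinases JAK1 and TYK2 to transcription factors that bind the interferon-stimulated response element (ISRE) in the promoters of antiviral genes. Interferon-gamma acts chiefly through another element, the gamma-activated sequence (GAS), and many genes answer to both. The products of antiviral genes detect viral nucleic acid, block viral translation, trap or degrade viral components and tag proteins with the ubiquitin-like ISG15. In the retina, microglia are among the cells that carry out this response.

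Several libraries went against their labels or stood apart. In the uncorrected counts of the 62 libraries, Xist, which is transcribed from the inactive X chromosome of females, was at 107 to 412 CPM in females and at 0 to 2.63 CPM in males, and the sum of the Y-linked genes was at 0 to 3.67 CPM in females and 140.0 to 489 CPM in males. Day 28 replicate 1 of the 18-month-old females held Xist at 0 CPM and the Y-linked genes at 388 CPM, and was left out here. Day 28 replicate 1 of the 9-month-old males held Xist at 255 CPM and the Y-linked genes at 0 CPM, and it stands in the uncorrected table alone. Whether these 2 libraries were exchanged was not tested. Day 28 replicate 4 of the 18-month-old males is given as day 28 in its title and as day 12 in another label, and was taken as day 28. The sum of 10 microglia markers was 31041 to 53871 CPM in naive, 8793 to 36512 CPM in day 12 and 17321 to 46402 CPM in day 28 libraries, and each of the 10 was above 0 in every library. The sum of 7 T cell markers was 0 to 137 CPM in naive, 1.57 to 334 CPM in day 12 and 11.9 to 167 CPM in day 28 libraries, and Cd3e, a chain of the T cell receptor complex, was at 0 in 15 of the 19 naive and 1 of the 22 day 12 libraries. The sum of 6 monocyte and neutrophil markers was 0.235 to 142 CPM in naive, 4.75 to 1100.4 CPM in day 12 and 0.197 to 58.1 CPM in day 28 libraries, and the neutrophil gene Ly6g was at 0 in all 22 day 12 libraries. The sum of 6 photoreceptor markers was 583 to 3242 CPM in naive and 412 to 2699 CPM in day 12 libraries (means 1869 and 1025 CPM), that of 4 B cell markers 5.78 to 117 and 14.3 to 92.6 CPM (means 81.6 and 49.3 CPM) and that of 4 Muller glia markers 249 to 374 and 227 to 516 CPM. On average the microglia, photoreceptor and B cell sums were lower and the other three higher at day 12, when the antiviral score was higher, and their part in the results was not tested. Of the Muller glia markers, Slc1a3 averaged 101 CPM in naive and 188 CPM in day 12 libraries. Glul (181 and 143 CPM) and Rlbp1 (29.9 and 14.0 CPM) were lower at day 12, and Aqp4 was at 2.91 and 3.03 CPM. In such bulk samples a change in the share of cells that express a gene and a change in its RNA per cell cannot be told apart.

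The promoter windows of RefSeq (GRCm38.p6, 250 bases before to 50 after the start of transcription) held 27 of the 37 members. The ISRE core was searched as GAAA, any 2 bases and GAAA again, on either strand, and exact matches lay in 12 of these 27 (44.4%) and in 3.99% of the 27025 genes with a window. A longer core, with a C after the second GAAA, whose matches are all matches of the shorter one, lay in 10 of the 27 (37%) and in 0.944% of all genes. GAS, searched as TTCNNNGAA, lay in 7 of the 27 (25.9%) and in 9.55% of all genes. These counts describe letters and not sites in use. The windows below show the 10 members with an ISRE core before the start, because these are the letters through which the transcription complex of type I interferon is known to act, with the matched cores in capitals.

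Shown 5′ to 3′ on the strand of the gene, Isg15 carried 3 overlapping matches (chr4:156200856-156200915, minus strand), and Oas1g (chr5:120887614-120887673, minus strand) and Oas1a (chr5:120907526-120907555, minus strand) each carried a pair that overlap, within a stretch that both windows share. Oas3 (chr5:120777700-120777759, minus strand) carried 1 match, Bst2 (chr8:71537565-71537624, minus strand) a pair, and Trim30a (chr7:104465195-104465254, minus strand) and Rsad2 (chr12:26456538-26456597, minus strand) 1 each. The Ifit1 window (chr19:34640784-34640813, plus strand) held 2 matches on the opposite strand, and those of Ifit3 (chr19:34583397-34583426, plus strand) and Ifit3b (chr19:34607793-34607822, plus strand) held the same 30 bases.
Isg15: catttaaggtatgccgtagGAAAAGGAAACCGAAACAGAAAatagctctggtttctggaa
Oas1g: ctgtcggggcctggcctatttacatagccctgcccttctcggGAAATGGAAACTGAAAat
Oas1a: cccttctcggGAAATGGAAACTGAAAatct
Oas3: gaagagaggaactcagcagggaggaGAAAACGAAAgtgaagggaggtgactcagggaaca
Bst2: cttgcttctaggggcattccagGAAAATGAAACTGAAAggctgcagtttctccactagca
Trim30a: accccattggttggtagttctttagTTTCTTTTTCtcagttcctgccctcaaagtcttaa
Rsad2: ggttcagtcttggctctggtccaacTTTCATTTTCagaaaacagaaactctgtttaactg
Ifit1: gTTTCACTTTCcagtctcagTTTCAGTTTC
Ifit3: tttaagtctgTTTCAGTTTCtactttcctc
Ifit3b: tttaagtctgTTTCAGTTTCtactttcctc

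**Figure D1:**
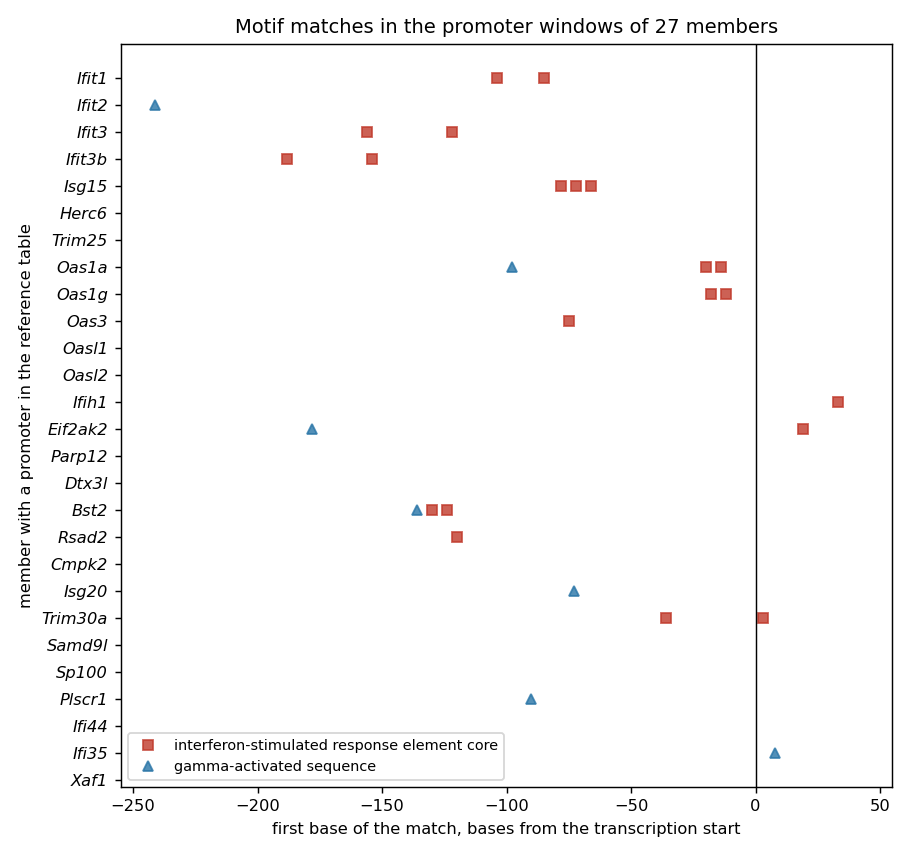
Each row is a member with a promoter window, the x axis gives the first base of a motif match in bases from the start of transcription, and squares and triangles mark the ISRE core and GAS. The ISRE cores of 12 of the 27 members lay between 188 bases before and 33 bases after the start.

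The score of the 37 members was higher at day 12 than in naive microglia of the same age and sex in every group, and at day 28 it lay between these in each. In naive microglia it was 4.85 ± 0.27 (SD, n = 4), 4.99 ± 0.46 (n = 3) and 4.95 ± 0.21 (n = 3) in females of 3, 9 and 18 months, and 4.41 ± 0.19 (n = 3), 4.61 ± 0.06 (n = 2) and 4.67 ± 0.47 (n = 4) in males. At day 12 it was 6.00 ± 0.71 (n = 4), 6.64 ± 0.19 (n = 3) and 6.42 ± 1.16 (n = 4) in females, and 6.38 ± 0.17 (n = 4), 6.44 ± 1.04 (n = 4) and 6.95 ± 0.36 (n = 3) in males. At day 28 it was 5.06 ± 0.06 (n = 4), 5.31 ± 0.27 (n = 4) and 5.71 ± 0.20 (n = 3) in females, and 5.44 ± 0.11 (n = 3), 5.44 ± 0.64 (n = 3) and 5.499 ± 0.14 (n = 4) in males. The day 12 and naive libraries did not overlap in any of the 6 pairs of age and sex, and the day 28 and naive libraries did not overlap in 4 of the 6, all but the 3- and 9-month-old females. Over all libraries the score ran from 4.29 to 5.47 in naive, from 4.96 to 7.79 at day 12 and from 4.74 to 6.00 at day 28.

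**Figure D2:**
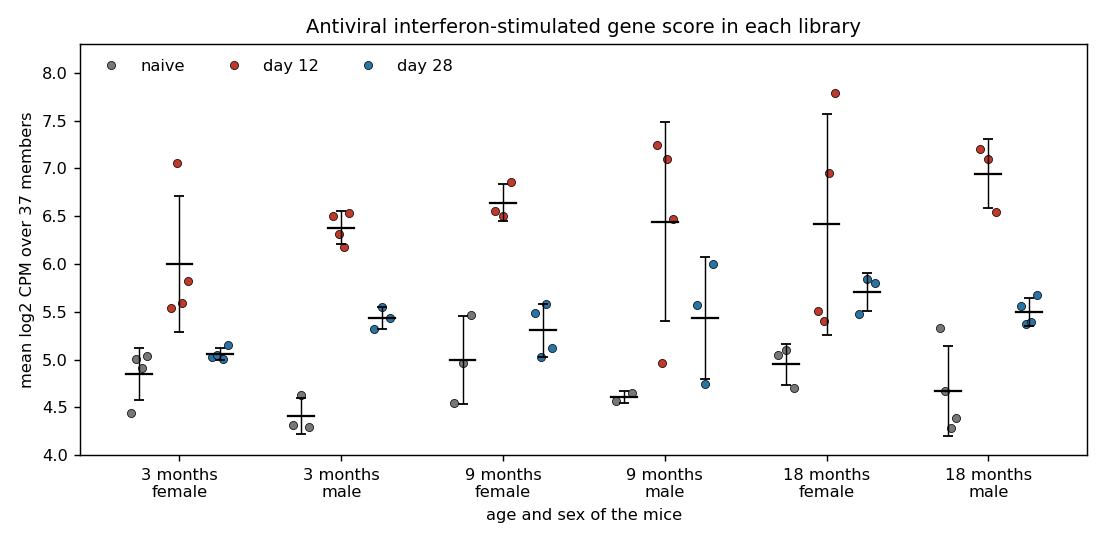
Each point is 1 library, the y axis is the mean log2 CPM over the 37 members, and bars give the mean and SD of each group. At day 12 the 4 libraries of 18-month-old females lie at 5.41, 5.51, 6.95 and 7.79 and 1 library of 9-month-old males lies at 4.96.

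Some day 12 libraries stood apart within their group. In 18-month-old females the score was 5.51 and 5.41 in replicates 1 and 2, both of the first collection day, and 6.95 and 7.79 in replicates 3 and 4, both of the second. The first pair also held summed microglia markers of 36510 and 31600 CPM and summed T cell markers of 1.57 and 10.5 CPM, within the range of naive libraries, against 15150 and 15320 CPM, and 334 and 191 CPM, in the second pair. The day 12 minus naive difference of the score in these females was 1.46, and it was 0.41 within the first collection day (2 libraries against 1) and 2.47 within the second (2 against 2). This split is given because the day 12 scores were seen to fall into these pairs. The gap between the 2 values follows from that choice and is no test. In 9-month-old males replicate 2 had a score of 4.96 against 6.47 to 7.25 in the other three, beside summed microglia markers of 29950 CPM against 9310 to 16600 CPM. In 3-month-old females replicate 2 had a score of 7.05 against 5.54 to 5.82 in the others.

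Members were called between days where edgeR's quasi-likelihood test against a log2 fold change of 1 (glmTreat) gave a Benjamini-Hochberg adjusted p under 0.05 over all genes tested. At day 12 against naive, 19 of 37 members rose in 3-month-old males (percent called higher over all genes, 2.77%) and 21 in 18-month-old males (2.86%). In 3-month-old females 5 rose (1.67%), Oas2, Zbp1, Ifi44, Oas1g and Oas3, and in 9-month-old females 5 rose (1.77%), Zbp1, Oas2, Ifi44, Dtx3l and Oasl2. Among the 3-month-old females, Oas3 passed the filter on low counts only through its day 12 libraries. In 9-month-old males the 1 member called was Oas1g (0.774%), and the count was 0 with the replicate number as a block and with uncorrected counts without collection day. The count there was 12 without day 12 replicate 2 and 0 without either naive library, while in 9-month-old females it was 8 without naive replicate 1 and 3 without day 12 replicate 3. In 18-month-old females no member was called by edgeR (0% of all genes higher) or by DESeq2. At an unadjusted p under 0.05 with no fold threshold the members were 28, 28 and 21 in females of 3, 9 and 18 months and 35, 31 and 35 in males. Counts at an unadjusted p, here and below, stand without the share of all genes, which was not counted. With 1 fit over all libraries, which share 1 estimate of the spread, the counts called were 3, 5 and 2 in females and 6, 5 and 15 in males. Counts under such alternatives, here and below, also stand without the share of all genes. They show how the main counts depend on the processing and are no further result about the members. No member fell at day 12 in any of the 6 comparisons, beside 0.755%, 0.754% and 0% of all genes called lower in females of 3, 9 and 18 months and 1.01%, 0.181% and 1.3% in males.

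The median log2 fold change of the members at day 12 was 1.03, 1.34 and 1.58 in females of 3, 9 and 18 months and 1.69, 1.93 and 2.01 in males, whereas the median over all genes tested lay between -0.01 and 0.11. In all 6 comparisons 34 of the 37 members had a fold change above 0. Of the 37 members, 27 were called in at least 1 comparison, 4 of them (Zbp1, Oas1g, Oas2 and Ifi44) in 4 comparisons, Oasl2 in 3, 10 in 2 and 12 in 1. The share of all genes called in at least 1 of the 6 comparisons was not counted. The 10 members that were called in none were Ifit3b, Trim25, Ifih1, Eif2ak2, Mx2, Bst2, Rsad2, Cmpk2, Samd9l and Ifi35. Leaving out day 12 replicate 1 brought the count in 18-month-old males to 13, and taking day 28 replicate 4 as day 12 also gave 13.

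**Figure D3:**
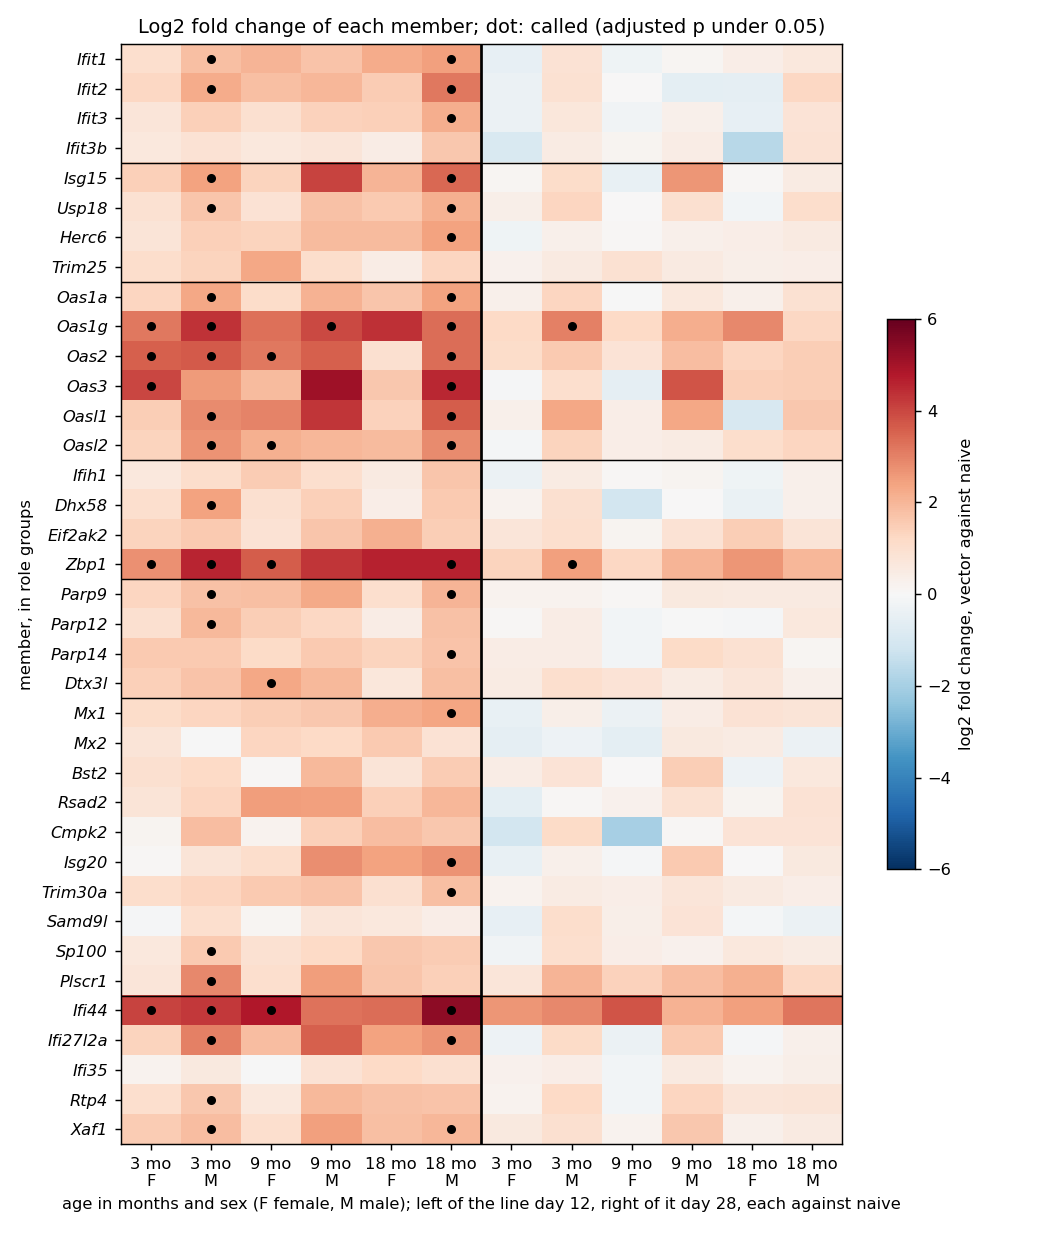
Each cell is the colour-coded log2 fold change of 1 member (rows, in role groups) in 1 group of age and sex (columns), with day 12 against naive on the left and day 28 against naive on the right, and a dot marks a call. Dots mark 5 OAS genes at day 12 in 3-month-old males and 6 in 18-month-old males, and at day 28 the 2 dots are Oas1g and Zbp1 in 3-month-old males.

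The OAS enzymes make 2′-5′-linked oligoadenylates on sensing double-stranded RNA, which activate RNase L, and Oasl1 and Oasl2 encode OAS-like proteins. All 6 members rose at day 12 in 18-month-old males, 5 in 3-month-old males, 3 in 3-month-old females, 2 in 9-month-old females, 1 in 9-month-old males and 0 in 18-month-old females. The 3 in 3-month-old females include Oas3, which passed the filter on low counts there only through day 12. The median log2 fold change of the family was 2.31, 2.55 and 1.63 in females of 3, 9 and 18 months and 2.76, 3.77 and 3.36 in males.

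Oas2 (chr5:120730333-120749886) stood at 7.62, 1.74, 12.6 and 15.2 CPM in the naive 3-month-old females and at 91.9, 216, 84.6 and 57.9 CPM at day 12. The lowest day 12 library was above the highest naive one, and the log2 fold change was 3.58 ± 0.46 (SE; edgeR glmTreat, adjusted p = 0.000229). In 18-month-old males it stood at 14.8, 6.96, 9.31 and 9.73 CPM in naive and at 99.9, 72.2 and 133 CPM in day 12 libraries, a log2 fold change of 3.35 ± 0.33 (adjusted p = 3.75e-05). In 9-month-old females the change was 3.15 ± 0.48 (adjusted p = 0.00648), from 18.8, 11.9 and 15.9 CPM to 84.5, 144 and 178 CPM. In 18-month-old females the naive libraries spread from 4.77 to 84.6 CPM and overlapped the day 12 libraries, at 14.8 to 111 CPM.

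Oas1g (chr5:120876142-120887613) was low in naive microglia, at 0.940, 3.47 and 0.852 CPM in 3-month-old males, and stood at 32.3, 37.2, 33.6 and 51.7 CPM at day 12. This was a log2 fold change of 4.34 ± 0.47 (adjusted p = 2.91e-05), and the groups did not overlap. In 9-month-old males, where it was the only member called, it went from 4.27 and 2.30 CPM to 87.8, 13.1, 59.9 and 38.5 CPM (3.95 ± 0.73, adjusted p = 0.0251), a call that those alternatives did not make. Oas1g shares 44.6% of its 75-base stretches with other genes' transcripts, chiefly Oas1a, so that reads of this pair may have been counted for either or for neither.

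Oasl2 had the highest mean CPM of the family and Oas1a the next, on a scale that is not adjusted for transcript length. In naive microglia Oasl2 averaged 58.5 ± 24.98, 54.8 ± 22.1 and 56.3 ± 39.7 CPM in females of 3, 9 and 18 months and 29.9 ± 10.2, 62.5 ± 41.1 and 47.8 ± 29.998 CPM in males. At day 12 Oasl2 averaged 146 ± 113, 234 ± 55.2 and 206 ± 143 CPM in females of 3, 9 and 18 months and 193 ± 20.4, 245 ± 161 and 337 ± 56.2 CPM in males. At day 28 Oasl2 averaged 54.2 ± 7.29, 71.5 ± 18.96 and 117 ± 40.98 CPM in females of 3, 9 and 18 months and 75.1 ± 5.71, 87.3 ± 41.5 and 115 ± 42.4 CPM in males. The day 12 mean was the highest of the 3 stages in every age and sex. In 3-month-old males naive libraries stood at 18.3, 37.4 and 34.1 CPM and day 12 libraries at 179, 224, 186 and 184 CPM, without overlap, and Oasl2 rose by 2.702 ± 0.24 on the log2 scale (adjusted p = 1.13e-05). In naive microglia Oas1a averaged 34.9 ± 15.3, 51.3 ± 29.1 and 52.01 ± 34.5 CPM in females of 3, 9 and 18 months and 22.3 ± 1.57, 33.7 ± 8.24 and 32.2 ± 7.84 CPM in males. At day 12 Oas1a averaged 85.8 ± 67.9, 107 ± 23.5 and 159 ± 116 CPM in females of 3, 9 and 18 months and 109.7 ± 18.01, 139.6 ± 72.5 and 171 ± 43.4 CPM in males. At day 28 Oas1a averaged 43.2 ± 4.65, 50.6 ± 14.3 and 64.3 ± 9.88 CPM in females of 3, 9 and 18 months and 52.7 ± 18.3, 51.002 ± 23.2 and 60.3 ± 10.3 CPM in males. As with Oasl2, the day 12 mean was the highest in each age and sex, and Oas1a rose in 3-month-old males (2.30 ± 0.25, adjusted p = 0.000377) and 18-month-old males (2.43 ± 0.26, adjusted p = 0.000266).

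Oas3 (chr5:120753098-120777684) was the one member that the filter on low counts removed from some fits, the 2 comparisons of ages in naive males. It stood at 0, 0.654, 0 and 1.88 CPM in naive 3-month-old females, the first 3 under the floor that 3 counts set in their own library (0.5 to 0.718 CPM in this group) and the last above it, and at 6.13, 17.3, 18.8 and 3.08 CPM at day 12. It rose by 4.00 ± 0.93 in these females (adjusted p = 0.0345) and by 4.54 ± 0.87 in 18-month-old males (adjusted p = 0.00727), fitted values that depend on the prior count. In the 3-month-old females Oas3 passed the filter only through the day 12 libraries, where it was high. Its call there is thus no separate support for a rise.

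Of the 4 sensors, 1 rose at day 12 in females of 3 and 9 months and in 18-month-old males, 2 in 3-month-old males and 0 in the other groups. Zbp1 (chr2:173206612-173218959), which binds Z-form nucleic acid and can trigger necroptosis, was called at day 12 in 4 of the 6 comparisons. Dhx58, a helicase of the RIG-I family, was called in 3-month-old males (2.41 ± 0.38, adjusted p = 0.00651) and in no other group, and neither Ifih1, which encodes the RNA sensor MDA5, nor Eif2ak2, which encodes the kinase PKR that halts translation on double-stranded RNA, was called in any. In 3-month-old males Zbp1 stood at 13.2, 12.2 and 5.11 CPM in naive libraries, at 212, 305, 199.6 and 291 CPM at day 12 and at 64.9, 60.5 and 48.8 CPM at day 28. The 3 stages did not overlap. The log2 fold change at day 12 was 4.58 ± 0.29 (adjusted p = 4.75e-08), the smallest adjusted p of any member in the 36 comparisons. In 18-month-old males it stood at 33.7, 14.2, 11.1 and 7.23 CPM, then at 416, 601 and 169 CPM (4.61 ± 0.49, adjusted p = 3.24e-05). In the 18-month-old females the naive libraries stood at 0, 27.1 and 11.3 CPM and the day 12 libraries at 41.95, 41.8, 510.2 and 656 CPM. The groups did not overlap, the day 12 libraries fell into the pairs of the collection days, and the change of 4.62 ± 1.22 was not called (adjusted p = 0.69).

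In naive microglia Zbp1 averaged 19.9 ± 4.32, 22.2 ± 14.2 and 12.8 ± 13.6 CPM in females of 3, 9 and 18 months and 10.14 ± 4.39, 15.3 ± 11.7 and 16.6 ± 11.8 CPM in males. At day 12 Zbp1 averaged 132 ± 89.03, 267 ± 51.6 and 312 ± 318 CPM in females of 3, 9 and 18 months and 252 ± 53.99, 294 ± 177 and 395 ± 217 CPM in males. At day 28 Zbp1 averaged 49.95 ± 10.4, 52.8 ± 20.4 and 80.8 ± 15.7 CPM in females of 3, 9 and 18 months and 58.1 ± 8.36, 61.4 ± 39.9 and 64.7 ± 18.2 CPM in males. The day 12 mean was the highest of the 3 stages in each age and sex, and the day 28 mean was above the naive mean in each. In 3-month-old females the rise at day 12 was 2.72 ± 0.36 (adjusted p = 0.000838) and in 9-month-old females 3.62 ± 0.45 (adjusted p = 0.001). In naive microglia Eif2ak2 averaged 47.1 ± 5.30, 69.8 ± 31.2 and 32.1 ± 17.2 CPM in females of 3, 9 and 18 months and 40.7 ± 13.6, 39.6 ± 13.3 and 54.02 ± 11.4 CPM in males. At day 12 Eif2ak2 averaged 118 ± 72.6, 125 ± 32.9 and 136 ± 76.1 CPM in females of 3, 9 and 18 months and 120.4 ± 52.2, 125 ± 44.3 and 146 ± 57.5 CPM in males. At day 28 Eif2ak2 averaged 77.1 ± 9.74, 79.1 ± 16.5 and 89.6 ± 7.65 CPM in females of 3, 9 and 18 months and 81.3 ± 17.3, 70.5 ± 28.7 and 90.7 ± 16.6 CPM in males. Eif2ak2 thus had day 12 means above naive in all 6 groups, with log2 fold changes of 0.87 to 2.11, of which none was called (smallest adjusted p = 0.23).

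**Figure D4:**
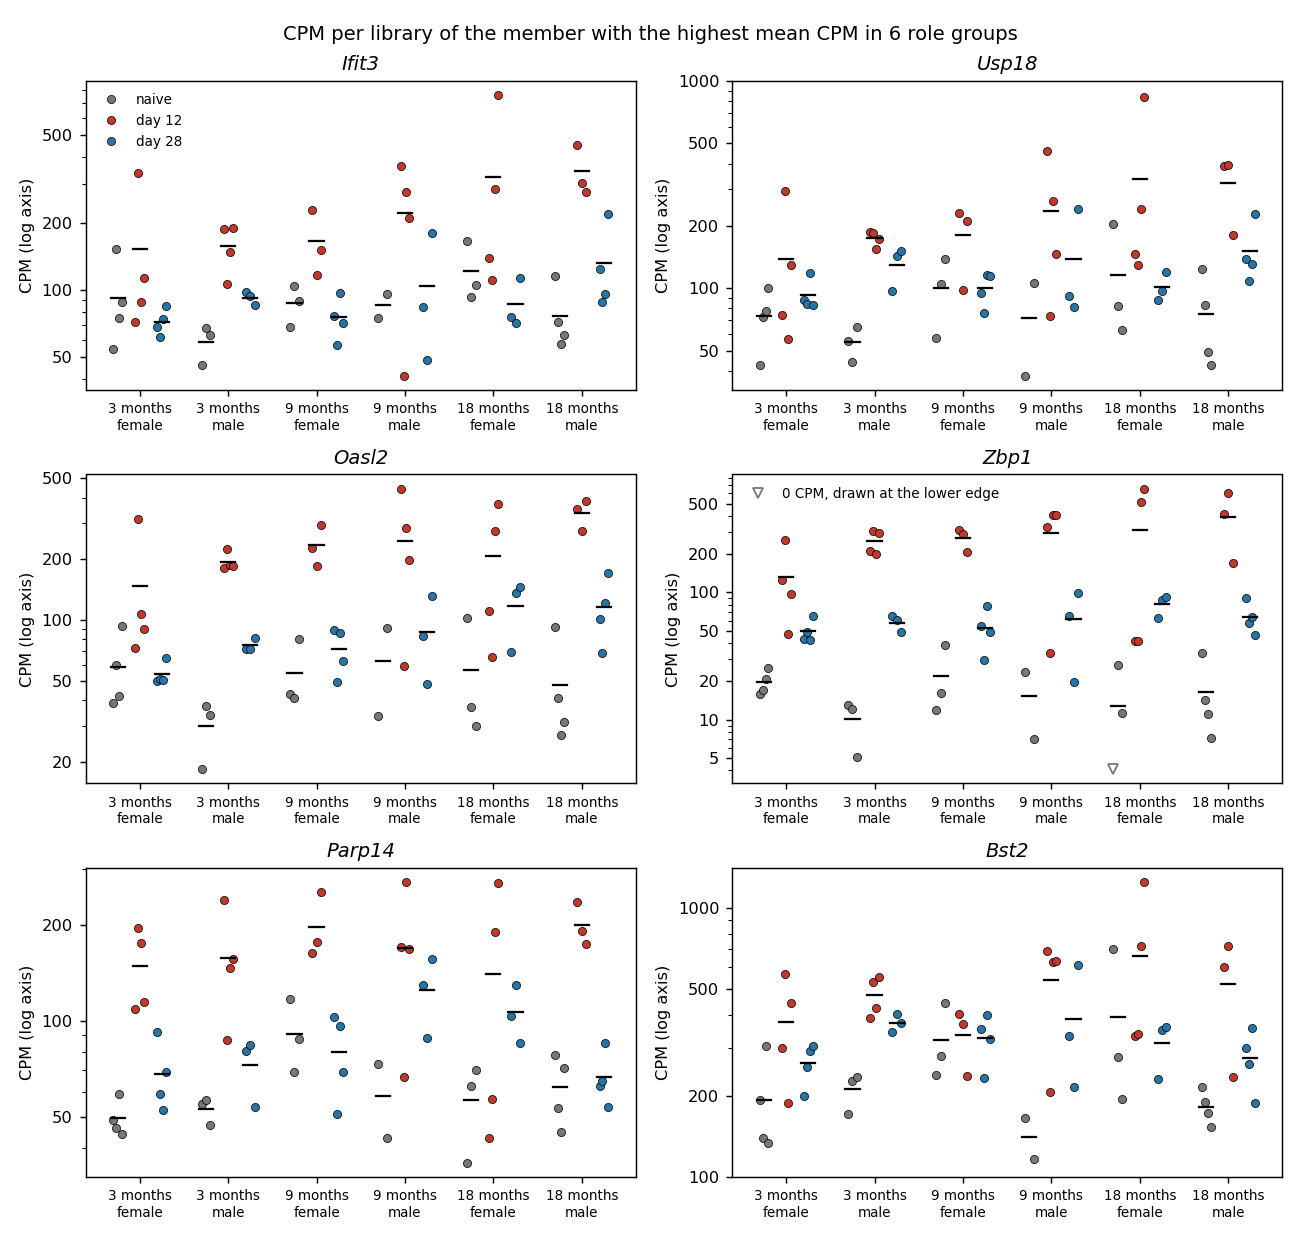
Each panel shows the member with the highest mean CPM in 1 of 6 role groups, by age and sex on the x axis, with 1 point per library coloured by stage, horizontal bars at group means and CPM on a log axis. The open triangle in the Zbp1 panel is a naive library at 0 CPM drawn at the lower edge, and the 3 stages of 3-month-old males do not overlap in that panel.

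The IFIT genes encode tetratricopeptide proteins, some of which bind viral RNA that lacks the host cap and block its translation, and lie together on chromosome 19 (Ifit2 at chr19:34550550-34576534, Ifit3 at chr19:34583119-34588982). At day 12, 3 of the 4 rose in 18-month-old males, 2 (Ifit1 and Ifit2) in 3-month-old males and 0 in the other 4 groups, with family medians of 0.87 to 2.33 on the log2 scale. Ifit2 stood at 61.6, 46.9, 33.2 and 35.4 CPM in naive 18-month-old males and at 469, 459 and 249 CPM at day 12, with no overlap. Its log2 fold change was 3.18 ± 0.35 (adjusted p = 0.000148). In naive microglia Ifit2 averaged 68.3 ± 23.7, 65.9 ± 7.11 and 113 ± 96.2 CPM in females of 3, 9 and 18 months and 41.1 ± 11.96, 68.4 ± 33.7 and 44.3 ± 13.02 CPM in males. At day 12 Ifit2 averaged 163 ± 151, 228 ± 60.8 and 313 ± 310.0 CPM in females of 3, 9 and 18 months and 196 ± 60.1, 265 ± 172 and 392.3 ± 124 CPM in males. At day 28 Ifit2 averaged 52.8 ± 9.17, 67.1 ± 20.1 and 77.9 ± 20.2 CPM in females of 3, 9 and 18 months and 77.1 ± 6.68, 44.3 ± 20.7 and 103 ± 52.8 CPM in males. The 3-month-old males rose by 2.25 ± 0.26 (adjusted p = 0.000701), and at day 28 the log2 fold change lay above 0 in 3 of the 6 groups, with no call in any. In naive microglia Ifit3 averaged 92.8 ± 42.5, 87.3 ± 18.000 and 122 ± 38.9 CPM in females of 3, 9 and 18 months and 58.8 ± 11.3, 85.8 ± 15.2 and 77.03 ± 26.7 CPM in males. At day 12 Ifit3 averaged 153 ± 124, 166 ± 57.7 and 323 ± 299 CPM in females of 3, 9 and 18 months and 158 ± 39.8, 224 ± 136 and 344 ± 92.9 CPM in males. At day 28 Ifit3 averaged 72.3 ± 9.94, 75.6 ± 16.8 and 86.999 ± 23.6 CPM in females of 3, 9 and 18 months and 92.7 ± 6.16, 105 ± 68.9 and 133 ± 61.1 CPM in males. At day 28 the log2 fold change of Ifit3 also lay above 0 in 3 of the 6 groups, and at day 12 the gene was called in 18-month-old males (2.19 ± 0.33, adjusted p = 0.0082) and in no other group. Ifit3 and Ifit3b have 41.1% and 35.7% of their 75-base stretches in common with other transcripts, chiefly each other's, and their values are uncertain to that extent. Ifit3b, with changes of 0.46 to 1.63 on the log2 scale, was called in no group.

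Isg15 encodes the ubiquitin-like modifier, Herc6 the main ligase for it in the mouse, and Usp18 the protease that removes it and that also dampens signalling at the type I interferon receptor. Usp18, Isg15 and Herc6 rose in 18-month-old males at day 12, Usp18 and Isg15 in 3-month-old males, and no gene of the group was called elsewhere. Isg15 (chr4:156199424-156200818) stood at 11.5, 5.39, 7.04 and 5.24 CPM in naive 18-month-old males, at 69.2, 134 and 27.4 CPM at day 12 and at 12.9, 8.98, 5.32 and 12.9 CPM at day 28. The day 12 libraries lay above both other stages, the day 28 libraries overlapped the naive ones, and Isg15 fell by 2.96 ± 0.47 from day 12 to day 28 on the log2 scale (adjusted p = 0.0177). In naive microglia Usp18 averaged 73.3 ± 23.7, 101 ± 40.6 and 116 ± 76.7 CPM in females of 3, 9 and 18 months and 54.96 ± 10.5, 71.7 ± 47.9 and 74.9 ± 37.2 CPM in males. At day 12 Usp18 averaged 139 ± 108, 180.2 ± 71.9 and 339 ± 335 CPM in females of 3, 9 and 18 months and 175 ± 14.6, 237 ± 169.7 and 321 ± 122 CPM in males. At day 28 Usp18 averaged 93.3 ± 16.6, 100.5 ± 19.1 and 102 ± 16.8 CPM in females of 3, 9 and 18 months and 130.3 ± 29.3, 138 ± 88.9 and 152 ± 52.9 CPM in males. Naive and day 12 libraries of Usp18 overlapped in females of all 3 ages and in 9-month-old males. Its rise was 1.68 ± 0.20 in 3-month-old males (adjusted p = 0.0111) and 2.13 ± 0.37 in 18-month-old males (adjusted p = 0.0244). In naive microglia Herc6 averaged 67.6 ± 10.6, 69.03 ± 2.41 and 56.7 ± 21.1 CPM in females of 3, 9 and 18 months and 54.5 ± 8.43, 52.1 ± 26.2 and 50.1 ± 25.1 CPM in males. At day 12 Herc6 averaged 117 ± 61.6, 171 ± 39.8 and 206 ± 161 CPM in females of 3, 9 and 18 months and 149 ± 31.5, 192 ± 83.8 and 263 ± 111 CPM in males. At day 28 Herc6 averaged 57.4 ± 11.3, 71.8 ± 22.3 and 74.9 ± 4.45 CPM in females of 3, 9 and 18 months and 65.3 ± 17.1, 63.5 ± 24.1 and 72.2 ± 6.04 CPM in males. Herc6 rose by 2.42 ± 0.34 in 18-month-old males (adjusted p = 0.00289), and 22.4% of its 75-base stretches also occur in the transcript of a predicted gene.

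Among the genes of ADP-ribosylation, Parp9 and Dtx3l encode partners in a complex that joins ADP-ribosylation to ubiquitin ligation, Parp14 encodes a mono-ADP-ribosyltransferase and Parp12 a member of the same family with zinc fingers. Parp9 and Parp14 rose in 18-month-old males, Parp9 and Parp12 in 3-month-old males and Dtx3l in 9-month-old females (2.33 ± 0.39, adjusted p = 0.0201). Dtx3l stood at 15.8, 37.3 and 35.7 CPM in the naive libraries of the latter and at 104, 148 and 189 CPM at day 12, without overlap. In naive microglia Parp14 averaged 49.5 ± 6.54, 91.2 ± 24.02 and 56.3 ± 18.1 CPM in females of 3, 9 and 18 months and 52.9 ± 4.93, 57.998 ± 21.3 and 61.9 ± 15.5 CPM in males. At day 12 Parp14 averaged 149 ± 43.3, 197 ± 48.2 and 140.0 ± 109 CPM in females of 3, 9 and 18 months and 157 ± 62.7, 169.6 ± 83.9 and 200.1 ± 31.3 CPM in males. At day 28 Parp14 averaged 68.2 ± 17.4, 79.7 ± 24.1 and 106 ± 22.5 CPM in females of 3, 9 and 18 months and 72.7 ± 16.6, 125 ± 34.3 and 66.7 ± 13.4 CPM in males. Its day 12 libraries lay above all naive ones in 4 of the groups, not in 9-month-old males or 18-month-old females. In 18-month-old males Parp14 rose by 1.72 ± 0.24 (adjusted p = 0.0279), and in 3-month-old females its change of 1.59 ± 0.24 was not called (adjusted p = 0.0897). In naive microglia Parp9 averaged 38.8 ± 15.5, 50.04 ± 17.4 and 43.6 ± 24.7 CPM in females of 3, 9 and 18 months and 37.1 ± 10.8, 30.8 ± 6.79 and 35.03 ± 15.6 CPM in males. At day 12 Parp9 averaged 93.6 ± 28.7, 173 ± 42.4 and 86.4 ± 56.7 CPM in females of 3, 9 and 18 months and 124 ± 16.3, 145 ± 85.8 and 143 ± 24.2 CPM in males. At day 28 Parp9 averaged 44.2 ± 5.32, 52.01 ± 13.7 and 62.1 ± 22.8 CPM in females of 3, 9 and 18 months and 42.7 ± 1.59, 46.3 ± 6.80 and 50.2 ± 9.33 CPM in males. Of the 6 groups, naive and day 12 libraries of Parp9 overlapped in 18-month-old females alone. Parp9 rose by 1.76 ± 0.22 in 3-month-old males (adjusted p = 0.0115) and by 2.06 ± 0.31 in 18-month-old males (adjusted p = 0.012). Parp9 (chr16:35938470-35972621) and Dtx3l (chr16:35926515-35939027) overlap at their ends in the genome, and reads of the overlap cannot be told apart in counts without strand.

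Of the 10 restriction factors, 3 rose in 18-month-old males (Trim30a, Isg20 and Mx1), 2 in 3-month-old males (Sp100 and Plscr1) and 0 in the other groups. Bst2, or tetherin, holds budding virions at the cell surface, Trim30a is a tripartite-motif gene of the mouse, Rsad2 encodes viperin, which makes a chain-terminating nucleotide, and Mx1 and Mx2 are annotated in this assembly, of the C57BL/6J strain, as transcribed pseudogenes. In naive microglia Bst2 averaged 193 ± 79.8, 321 ± 108 and 391.9 ± 272 CPM in females of 3, 9 and 18 months and 211 ± 35.3, 141 ± 34.5 and 182 ± 26.8 CPM in males. At day 12 Bst2 averaged 374 ± 165, 335 ± 87.1 and 660.0 ± 431 CPM in females of 3, 9 and 18 months and 474 ± 78.8, 539 ± 223 and 518 ± 252 CPM in males. At day 28 Bst2 averaged 264 ± 47.7, 328 ± 70.6 and 314 ± 72.9 CPM in females of 3, 9 and 18 months and 374 ± 28.2, 387 ± 205 and 277 ± 70.7 CPM in males. Naive and day 12 libraries of Bst2 (chr8:71534255-71537472) overlapped in females of all 3 ages and not in males, and no change was called, at 0.09 to 1.96 on the log2 scale. In 3-month-old males the day 12 libraries stood at 390.0, 530.1, 425 and 552 CPM, above the naive ones at 171, 227 and 236 CPM, a change of 1.17 ± 0.18 that was not shown to exceed the fold threshold (adjusted p = 0.667). In naive microglia Trim30a averaged 125 ± 24.7, 128 ± 72.7 and 141 ± 35.3 CPM in females of 3, 9 and 18 months and 119 ± 20.1, 97.9 ± 0.357 and 106 ± 32.2 CPM in males. At day 12 Trim30a averaged 262 ± 105, 368 ± 104 and 271 ± 146 CPM in females of 3, 9 and 18 months and 288 ± 61.7, 311 ± 155 and 364 ± 49.2 CPM in males. At day 28 Trim30a averaged 143 ± 11.2, 168 ± 67.4 and 204 ± 52.6 CPM in females of 3, 9 and 18 months and 169 ± 17.3, 159 ± 39.8 and 137 ± 27.8 CPM in males. Of the 6 groups, naive and day 12 libraries of Trim30a overlapped in 18-month-old females alone. Trim30a rose by 1.80 ± 0.25 in 18-month-old males (adjusted p = 0.0163), where naive libraries stood at 154.7, 93.0, 88.8 and 89.3 CPM and day 12 libraries at 420.0, 346 and 327 CPM.

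In the set of other interferon-stimulated genes, Ifi44 and Ifi27l2a are genes long used as readouts of interferon, Rtp4 encodes a receptor transporter protein and Xaf1 encodes a partner of the apoptosis inhibitor XIAP. Ifi44 (chr3:151730922-151749910) was called in 4 of the 6 comparisons and its day 12 change was at least 3.24 in each on the log2 scale, from naive libraries at 0 to 7.16 CPM. In 3-month-old females it stood at 0, 6.32, 1.16 and 1.44 CPM in naive and at 13.5, 41.0, 52.0 and 39.4 CPM in day 12 libraries (4.04 ± 0.62, adjusted p = 0.00115). In 9-month-old females the change was 4.82 ± 0.82 (adjusted p = 0.00665). In naive microglia Ifi27l2a averaged 271 ± 153, 557 ± 446 and 443 ± 161 CPM in females of 3, 9 and 18 months and 180.5 ± 61.1, 135 ± 65.6 and 280.3 ± 90.2 CPM in males. At day 12 Ifi27l2a averaged 689 ± 335, 1997 ± 197 and 2280.5 ± 2504 CPM in females of 3, 9 and 18 months and 1457 ± 538, 1614 ± 1317 and 1766 ± 1163 CPM in males. At day 28 Ifi27l2a averaged 221 ± 48.8, 434 ± 272 and 416 ± 76.5 CPM in females of 3, 9 and 18 months and 397 ± 139, 395 ± 192 and 344 ± 75.7 CPM in males. In 9-month-old males day 12 replicate 2 stood at 123 CPM and the others at 1065 to 3180 CPM. Ifi27l2a rose in 3-month-old males (3.03 ± 0.32, adjusted p = 5.33e-05) and 18-month-old males (2.68 ± 0.43, adjusted p = 0.00493). In naive microglia Rtp4 averaged 206 ± 62.5, 290.4 ± 265 and 203 ± 69.2 CPM in females of 3, 9 and 18 months and 155 ± 15.4, 146 ± 14.997 and 223 ± 97.1 CPM in males. At day 12 Rtp4 averaged 412 ± 317, 437 ± 189 and 677 ± 449.7 CPM in females of 3, 9 and 18 months and 469 ± 112, 556 ± 269 and 707 ± 269 CPM in males. At day 28 Rtp4 averaged 240.2 ± 34.5, 259.5 ± 102 and 327 ± 117 CPM in females of 3, 9 and 18 months and 358 ± 42.5, 354 ± 194 and 382 ± 192 CPM in males. Naive and day 12 libraries of Rtp4 overlapped in 3- and 9-month-old females and in no other group. Rtp4 was called in 3-month-old males (1.60 ± 0.20, adjusted p = 0.0193) and in no other group, though its change ran up to 1.95 in the others, and Ifi35 was called in no group, at -0.01 to 1.197 on the log2 scale.

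At day 28 few members were called. In 3-month-old males Zbp1 (2.45 ± 0.29, adjusted p = 0.00186) and Oas1g (3.04 ± 0.48, adjusted p = 0.01) were still higher than in naive microglia (0.665% of all genes), Oas1g at 12.7, 16.1 and 17.6 CPM. Without naive replicate 1 or 3 the count was 1. The count was 0 in 3-month-old females (0.396% of all genes), 9-month-old females (0.426%), 9-month-old males (0.12%), 18-month-old females (0%) and 18-month-old males (0.553%). At an unadjusted p under 0.05 with no fold threshold the members were 5, 4, 12, 4 and 15 in these, in the same order, and DESeq2 called 0, 1, 0, 0 and 0. Leaving out naive replicate 2 of the 3-month-old females gave 1 call there, and leaving out naive replicate 1 of the 18-month-old males gave 2. No member was called lower at day 28, beside 0.0449%, 0.0355% and 0% of all genes in females of 3, 9 and 18 months and 0.0359%, 0.0086% and 0.132% in males. The median log2 fold change of the members at day 28 was 0.19, 0.06 and 0.40 in females of 3, 9 and 18 months and 0.96, 0.72 and 0.63 in males. Of the 37 members, 11 had a log2 fold change above 0 in all 6 groups, 12 in 5, 8 in 4, 5 in 3 and 1, Mx2, in 2. No such tally was made over all genes. The 11 were Ifi44 (2.08 to 3.79), Oas1g (1.18 to 3.04), Oas2 (0.82 to 1.83), Zbp1 (1.26 to 2.63), Plscr1 (0.75 to 2.13), Trim25, Eif2ak2, Parp9, Dtx3l, Trim30a and Xaf1.

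From day 12 to day 28, Zbp1 fell by 2.12 ± 0.25 in 3-month-old males (adjusted p = 0.0122; 0.279% of all genes lower), and Isg15 and Zbp1 fell in 18-month-old males (Zbp1 by 2.63 ± 0.45, adjusted p = 0.0305; 0.667%). The count was 0 in 3-month-old females (0.108%), 9-month-old females (0.231%), 9-month-old males (0%) and 18-month-old females (0%), where 28, 28, 18 and 12 members had an unadjusted p under 0.05 with no fold threshold and DESeq2 called 0 in each. No member rose between these days, beside 0.00899%, 0.151% and 0% of all genes in females of 3, 9 and 18 months and 0.117%, 0% and 0.193% in males. The members' median change between them was -1.08, -1.44 and -1.07 in females and -0.91, -1.21 and -1.44 in males. In 18-month-old males the count was 0 without day 12 replicate 1 or 2 or day 28 replicate 2 or 3, 1 without day 28 replicate 1 and 6 without day 12 replicate 3. In 3-month-old males it was 0 without day 12 replicate 4 or day 28 replicate 3. Where it was 0, leaving out day 12 replicate 4 of the 3-month-old females gave 1, day 28 replicate 1 or 3 of the 9-month-old females 1 or 2, and day 12 replicate 2 of the 9-month-old males 1.

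Between ages, 4 calls were made in 12 comparisons of 9 or 18 with 3 months (edgeR glmQLFTest, adjusted p under 0.1, no fold threshold). At day 28, 3 members were higher in 18-month-old than in 3-month-old females, against 0.512% of all genes higher and 0.185% lower: Oas2 by 2.04 ± 0.37 (adjusted p = 0.0214), Oas3 by 3.84 ± 0.80 (adjusted p = 0.0578) and Oasl2 by 1.10 ± 0.24 (adjusted p = 0.0701). Oas2 stood at 28.4, 18.5, 14.7 and 18.0 CPM in the 3-month-old and at 72.9, 121 and 53.7 CPM in the 18-month-old females, and Oas3 at 0.511, 0.394, 0.229 and 1.54 CPM against 7.74, 13.3 and 7.80 CPM. For Oas3, replicates 2 and 3 of the 3-month-old females lay under the floor of 3 counts (0.569 and 0.655 CPM). Its fitted change thus depends on the prior count. Oasl2 stood at 49.9, 51.3, 50.6 and 65.1 CPM against 69.5, 136 and 144 CPM. For all 3 genes every 18-month-old library was above every 3-month-old one. Without day 28 replicate 3 of the 18-month-old females 0 members were called, without replicate 1, 2 or 3 of the 3-month-old females 1 was, and 7 were when the library labelled as an 18-month-old female but with male sex markers was added.

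In naive males, Samd9l (chr6:3372257-3399571), a restriction factor of the SAMD9 family, was higher at 18 than at 3 months by 1.74 ± 0.25 (adjusted p = 0.00696), 1 of 36 members tested against 0.0605% of all genes. It stood at 33.8, 34.7 and 50.7 CPM in 3-month-old, 62.7 and 56.5 CPM in 9-month-old and 168, 105, 144 and 114 CPM in 18-month-old naive males. The groups of 3 and 18 months did not overlap, whereas in naive females they did, with 115, 116, 80.0 and 85.8 CPM at 3 months and 155, 138 and 110.2 CPM at 18 months. Samd9l was called at day 12 in no group, and without naive replicate 1 or 2 of the 3-month-old males the call between ages was lost (adjusted p = 0.158 in both). In the other 10 comparisons of ages no member was called. All genes were called higher at 0.393% and lower at 0.0268% between 9 and 3 months in females at day 12, at 0.0357% and 0.0268% between 18 and 3 months there, at 0.0177% higher between 9 and 3 months in females at day 28, at 0.00901% higher between 18 and 3 months in males at day 28, and at 0% elsewhere. At an unadjusted p under 0.05 these 10 comparisons held 0 to 6 members each, and DESeq2 called 1 member, at 9 against 3 months in females at day 28. Leaving out naive replicate 1 of the 9-month-old males, which left 1 library in that group whose spread was taken from the others, gave 6 calls between 9 and 3 months in naive males.

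The difference between the sexes in the change from naive was tested as an interaction in each age. No member was called in any of the 6 tests (adjusted p under 0.1), beside 0.0583% and 0.00833% of all genes with a larger change in males at 3 months (day 12 and day 28), 0.00809% with a smaller one at 9 months and day 12, and 0% in the rest. The counts of called members at day 12, 19 and 21 in males against 5 and 0 in females at 3 and 18 months, are thus not shown to differ between the sexes for any single gene. The smallest p belonged to Zbp1 at 3 months and day 12, with a male minus female difference in log2 fold change of 1.87 ± 0.50 (adjusted p = 0.29). At an unadjusted p under 0.05 there were 8, 2 and 4 members at day 12 and 10, 4 and 2 at day 28 in mice of 3, 9 and 18 months, and DESeq2 called 1, at 3 months and day 12. Without day 12 replicate 2 of the 3-month-old females, whose score was 7.05, 3 members were called at day 12.

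Genes of the pathway were read from 2 further lists. Of 21 genes of type I interferon signalling, such as the receptor chains, kinases, sensors and transcription factors, 20 were tested at day 12 in 5 of the groups and 21 in 18-month-old females, and 2, 3 and 0 rose in females of 3, 9 and 18 months and 4, 1 and 4 in males, with medians of 0.15 to 0.49 on the log2 scale. Over all genes the share called higher was 1.67%, 1.77% and 0% in these females and 2.77%, 0.774% and 2.86% in these males. Ifnb1, which encodes interferon-beta, was at 0 in 5 of the 19 naive and 9 of the 22 day 12 libraries and averaged 2.43 ± 3.92 (SD, n = 19) and 3.24 ± 7.05 CPM (n = 22) in them.

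Of 23 interferon-gamma-associated genes, 20 to 22 were tested at day 12, and 11, 16 and 0 rose in females of 3, 9 and 18 months and 16, 10 and 17 in males, with medians of 2.44 to 4.89, beside the same shares over all genes. In 3-month-old males the smallest p was that of Cd74, which encodes the chaperone of MHC class II molecules (5.59 ± 0.22, adjusted p = 1.29e-10), and Gbp2, a guanylate-binding protein, in 18-month-old males (7.01 ± 0.35, adjusted p = 1.22e-08). At day 28, 2, 4 and 0 of these genes were called higher than naive in females of 3, 9 and 18 months (0.396%, 0.426% and 0% of all genes) and 7, 2 and 7 in males (0.665%, 0.12% and 0.553%). Their summed CPM was 2371 to 5393 in naive, 2617 to 47970 in day 12 and 6664 to 31306 in day 28 libraries. In the 18-month-old females at day 12 it was 3249 and 2617 CPM in the pair with scores of 5.51 and 5.41, 40120 CPM in the library at 6.95 and 9555 CPM in the library at 7.79. That last library had the highest antiviral score of all 62 and also held 1100.4 CPM of monocyte and neutrophil markers, the highest of all, of which Plac8 made 988 CPM; the part of such cells in its score was not tested.

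**Figure D5:**
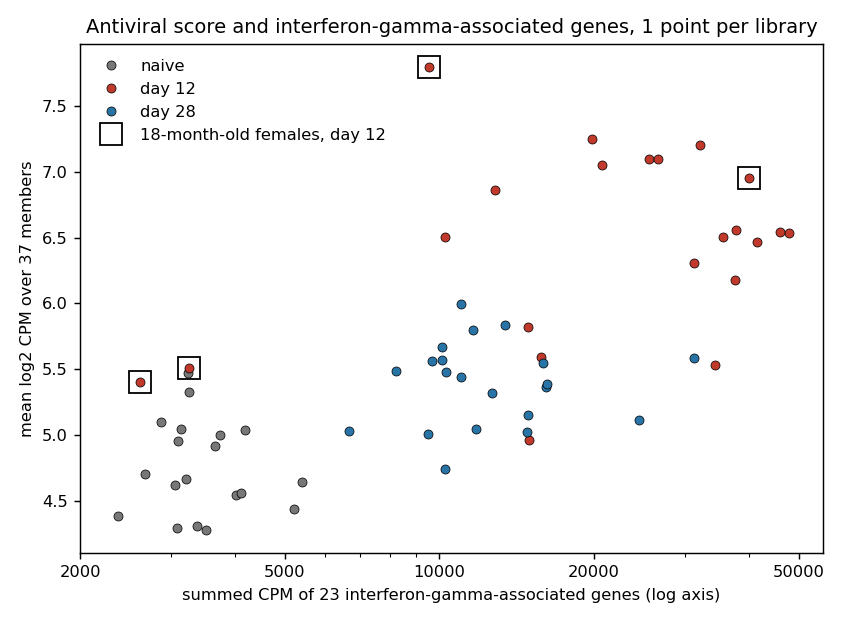
Each point is 1 library, the x axis is the summed CPM of 23 interferon-gamma-associated genes on a log axis and the y axis is the antiviral score, with squares around the 4 day 12 libraries of 18-month-old females. Of these, 2 have gamma sums within the range of naive libraries (2617 and 3249 CPM) and scores of 5.41 and 5.51, beside the highest naive score of 5.47, and the library with the highest score of all, 7.79, has a gamma sum of 9555 CPM.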

How the data were processed

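RNA of 600 sorted microglia per retina was converted to cDNA with SMART-Seq v4 and sequenced after Nextera XT preparation. The authors converted reads with bcl2fastq (version 2.20), mapped them to mm10 with STAR (version 2.7.8a) and obtained read numbers for refGene genes from featureCounts; versions are from the submitters' processing notes. They deposited raw counts and counts after ComBat_seq correction for collection day, both as whole-number counts per gene. The corrected counts were used here, and the p-values do not account for the correction, which was fitted on these same libraries. No fold changes of the authors were used.

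Of 64 libraries in the labels, 62 entered the fits and 2 were left out for the sex markers given in the report. Counts were filtered with filterByExpr, scaled by TMM and tested in edgeR (version 4.0.16, R version 4.3.3), which left 11101 to 12364 genes per fit. Days were compared within each age and sex by glmTreat, with 1 as the log2 threshold (adjusted p under 0.05), and ages and the sex by day interaction by glmQLFTest (adjusted p under 0.1). P-values were Benjamini-Hochberg adjusted over all genes tested. In all there were 18 comparisons of days, 12 of ages and 6 interactions, and comparisons within an age and sex share their naive libraries. The score used log2 CPM with a prior count of 2. Promoters and gene positions came from RefSeq and GRCm38.p6 tables, and shared stretches were counted as 75-base words of the transcripts. Total counts of 1468478 to 9836173 put the floor of 3 counts at 0.305 to 2.04 CPM, which covers counting error only.

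The members and lists were chosen with earlier results of these data known. Named with values were the 2 members of each role group with the highest mean CPM, the 3 called members with the smallest p in each comparison, every member called between ages in naive microglia or in an interaction or against the main direction, and members removed by the filter. Members of counts of 5 or fewer, members called in no group, and examples outside this rule were named after their values were seen. On simulated counts for 3-month-old males at day 12, with a log2 fold change of 3 in 200 genes, 77.5% were recovered with 1 false call among 10823 genes, and for 18-month-old females 52% with 0 among 10868. For 18 against 3 months in females at day 28, with a log2 fold change of 2, 74.5% were recovered with 22 false calls among 11026 genes, and for the sex by day 12 interaction at 3 months, with 3, 76.5% with 19 among 11678. The alternatives were DESeq2 (version 1.42.0), DESeq2 size factors, no filter, a plain test with a fold threshold, a fit over all libraries, a replicate block, uncorrected counts with and without collection day, other priors and summaries of the score, either collection day alone, other label choices and leaving out each library. Analyses used limma (version 3.58.1), python (version 3.11.15), pandas (version 2.3.3) and matplotlib (version 3.10.9). The values of some single genes are not reported here.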

Additional observations from a re-analysis of the deposited data

Results flagged for a closer look

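For the member score and the 14 members described by level in every group, 16 of 135 sets of 4 libraries of a group (11.9%) held a library whose gap to the nearest other exceeded Dixon's 95% critical value. For normal values chance gives about 1 in 20 sets. The members were read as CPM without logs and the sets reuse the same libraries, so this rate is no measure here. Day 12 replicate 2 of the 3-month-old females was high for 6 genes: Ifit2 at 388 CPM (others 67.4 to 110 CPM), Ifit3 at 338 CPM (71.9 to 114), Herc6 at 209 CPM (78.6 to 91.1), Oasl2 at 315 CPM (72.7 to 107), Eif2ak2 at 226 CPM (77.0 to 89.5) and Trim30a at 419 CPM (200 to 214). At day 28 in 3-month-old females, replicate 4 was high for Ifit2 at 66.4 CPM (46.3 to 49.3) and Oasl2 at 65.1 CPM (49.9 to 51.3), and replicate 3 for Usp18 at 118 CPM (82.9 to 87.8). In 3-month-old males at day 12, Oasl2 was high in replicate 2 at 224 CPM (179 to 186) and Parp9 was low in replicate 3 at 99.4 CPM (130 to 134).

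In 9-month-old mice, Parp9 was high in day 28 replicate 3 of the females at 72.4 CPM (42.6 to 47.5), and Bst2 was low in day 12 replicate 2 of the males at 207 CPM (629 to 689). In 18-month-old mice, Usp18 was high in day 12 replicate 4 of the females at 836 CPM (130 to 242), Ifit2 in day 28 replicate 4 of the males at 182 CPM (73.1 to 84.4) and Trim30a in naive replicate 1 of the males at 155 CPM (88.8 to 93.0).

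The 2 libraries left out of the comparisons were read in the uncorrected counts. The library labelled day 28 replicate 1 of the 18-month-old females, with male sex markers, had a member score of 7.16, and the library labelled day 28 replicate 1 of the 9-month-old males, with female sex markers, had a score of 5.56. Both lay above the highest naive score in the same counts, which was 5.33. The score of 7.16 also lay above the other day 28 libraries, at 4.62 to 5.94, and within the range of day 12 libraries, at 5.03 to 7.72, and whether the 2 libraries were exchanged was not tested.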

How the results depend on the processing

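No member called in the main fits changed sign under any alternative, in the comparison where it was called, and scores kept their direction in all. The signs of members that were not called were not checked. Counts of members called at day 12 against naive, day 28 against naive and day 28 against day 12 moved as follows, F and M standing for females and males of the age in months. They stand, here and below, without the share of all genes called under each alternative. A higher count under a looser rule is thus no result about the members. Under 1 fit over all libraries, day 12 gave 3 (3F), 6 (3M), 5 (9M) and 2 (18F), and the counts at day 28 (3M), day 28 against day 12 (3M, 18M) and 18 against 3 months (females, day 28) were 0. The plain quasi-likelihood test with a log2 fold change above 1 gave 17, 2 and 9 (3F), 31, 9 and 12 (3M), 17, 1 and 16 (9F), 33, 3 and 23 (18M), and 5 at day 12 (9M). Without the filter on low counts day 12 gave 10 (9F) and 12 (9M), day 28 gave 1 (3F), 4 (3M), 1 (9F), 2 (9M) and 1 (18M), day 28 against day 12 gave 2 (3F), 3 (3M), 5 (9F), 2 (9M) and 6 (18M), ages gave 4 (females, day 12, 18 against 3), 2 and 5 (females, day 28, 9 and 18 against 3), 2 (naive males, 9 against 3) and 1 (males, day 12, 18 against 3), and interactions gave 3 and 3 (3 months, day 12 and 28) and 1 and 2 (9 months). DESeq2 gave 1 at day 28 (9F), 3 at day 12 (9M), 1 between 9 and 3 months (females, day 28) and 1 for the interaction at 3 months and day 12. Uncorrected counts with collection day as a term gave 2 for day 28 against day 12 (3M). Uncorrected counts without it gave 1 at day 28 and 0 for day 28 against day 12 (3M), 0 at day 12 (9M), 0 for day 28 against day 12 (18M), and 0 between 18 and 3 months in females at day 28 and naive males. With day 28 replicate 4 taken as day 12, 18M gave 13 at day 12 and 0 for day 28 against day 12. With the library labelled as a day 28 female of 18 months but with male sex markers, 7 members were called between 18 and 3 months in females at day 28 and the score difference at day 28 (18F) was 1.12. The second collection day alone, chosen after the day 12 libraries of the first were seen to stand near naive, gave 22, 2 and 7 (18F), the 7 lower at day 28, with score differences of 2.47 at day 12 (18F) and 1.196 at day 28 (18M). Calls within this day were made for 18F only. The choice dropped the low day 12 libraries of 18F, so that these counts and the 2.47 follow from it and are no test. The first day alone gave score differences of 2.01 and 0.943 (9F, day 12 and 28), 0.409 and 0.427 (18F) and 0.464 (18M, day 28). The median over members gave 1.78 and 0.852 (3M, day 12 and 28). The cause of these differences was not tested.

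Leaving out 1 library at a time gave 0 to 1 (3F), 1 to 3 (3M) and 0 to 2 (18M) at day 28, 3 to 8 (9F), 0 to 12 (9M) and 13 to 24 (18M) at day 12, and 0 to 1 (3F), 0 to 1 (3M), 0 to 2 (9F), 0 to 1 (9M) and 0 to 6 (18M) for day 28 against day 12. It gave 0 to 3 (females, day 28, 18 against 3 months), 0 to 6 and 0 to 1 (naive males, 9 and 18 against 3 months) and 0 to 3 (interaction, 3 months, day 12). Of 417 calls of single members in these fits, 332 were kept and 85 lost. Replicate numbers did not pair the libraries: deviations of 54 pairs with the same number correlated at -0.0343 on average, and of 159 pairs with other numbers at 0.0116. With the replicate block the counts were 2 for day 28 against day 12 (3M), 0 at day 12 (9M) and 0 for day 28 against day 12 (18M), and other counts stayed within 1.5 times. Groups of 2 to 4 libraries and members near the floor, such as Oas3, limit what the tests can show.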
